A study of Mus musculus with 2 samples.

Results

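The pore-forming alpha-1 subunits of voltage-gated calcium channels are described here by the 8 genes Cacna1a, Cacna1b, Cacna1c, Cacna1d, Cacna1e, Cacna1g, Cacna1h and Cacna1i. They were picked by gene symbol and not by a threshold on a measured value, though earlier results of these data were known. They are 8 of 55536 annotated mouse genes and 8 of 22028 protein-coding genes, with 100 of 141767 annotated transcripts. Total RNA was sequenced from 2 female mice of strain B6CASTF1/J, each aged 10 days and giving its left cerebral cortex, from 300 ng of RNA per library and with ERCC spike-in RNA added. B6CASTF1/J mice are the first-generation offspring of a cross between the C57BL/6J and CAST/EiJ inbred strains. Each of the 8 genes therefore carries an allele from each strain, and the deposited values do not separate them. The libraries are biological replicates 1 and 2 of a single untreated group, with 29867112 and 31031340 expected reads on annotated genes. There is no group to compare with, and the smallest two-sided p that a permutation over 2 animals allows is 0.5, so spreads between the animals are given without p-values.

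Each alpha-1 subunit is a single long protein of 4 repeated domains that folds around the calcium pore and carries the voltage sensors. Its gene sets the class of the current. Cacna1c and Cacna1d encode the L-type (Cav1) channels, which couple activity to gene expression and pacemaking. Cacna1a, Cacna1b and Cacna1e encode the P/Q-, N- and R-type (Cav2) channels, which supply much of the calcium that triggers transmitter release. Cacna1g, Cacna1h and Cacna1i encode the T-type (Cav3) channels, which open at low voltage and support burst firing and rhythmic activity. Several of these genes carry pairs of equally long exons lying one after the other, of which a transcript uses one. Such twin exons code for alternative versions of the same stretch of the channel.

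The twin exons of the Cav2 genes are shown first because the genes differed most in which twin the deposited transcript values assigned to them. Each pair is 97 bases long and codes for the beginning of the intracellular C-terminal tail. Sequences are from the GENCODE M21 transcripts (assembly mm10), written 5′ to 3′ on the gene's strand, and capitals mark the bases at which the twins of a gene differ. In Cacna1a the upstream twin lies at chr8:84614695-84614791 and the downstream twin at chr8:84615574-84615670, on the plus strand.
Cacna1a upstream: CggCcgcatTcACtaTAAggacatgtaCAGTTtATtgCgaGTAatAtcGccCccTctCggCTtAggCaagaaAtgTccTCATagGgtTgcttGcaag
Cacna1a downstream: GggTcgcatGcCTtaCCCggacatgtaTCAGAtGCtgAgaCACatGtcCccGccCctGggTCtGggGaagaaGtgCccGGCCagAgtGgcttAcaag

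In Cacna1b, on the minus strand, the upstream twin lies at chr2:24626823-24626919 and the downstream twin at chr2:24625238-24625334.
Cacna1b upstream: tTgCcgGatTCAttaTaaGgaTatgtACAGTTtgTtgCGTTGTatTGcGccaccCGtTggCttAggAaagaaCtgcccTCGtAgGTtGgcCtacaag
Cacna1b downstream: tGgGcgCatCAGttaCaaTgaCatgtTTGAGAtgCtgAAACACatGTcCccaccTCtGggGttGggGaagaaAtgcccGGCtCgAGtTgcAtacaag

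In Cacna1e, also on the minus strand, the upstream twin lies at chr1:154417950-154418046 and the downstream twin at chr1:154416061-154416157.
Cacna1e upstream: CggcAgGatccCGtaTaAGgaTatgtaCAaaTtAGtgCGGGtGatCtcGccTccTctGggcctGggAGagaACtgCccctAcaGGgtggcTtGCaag
Cacna1e downstream: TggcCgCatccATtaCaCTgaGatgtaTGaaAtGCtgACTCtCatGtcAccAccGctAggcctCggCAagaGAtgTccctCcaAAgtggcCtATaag

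Upstream twins were more alike across genes than the twins within a gene, and the same held for downstream twins. The twins of Cacna1a were identical at 60 of 97 bases (61.9%), those of Cacna1b at 57 (58.8%) and those of Cacna1e at 61 (62.9%). Between genes, the upstream twins of Cacna1a and Cacna1b matched at 75.3%, those of Cacna1a and Cacna1e at 75.3% and those of Cacna1b and Cacna1e at 69.1%. The downstream twins matched at 79.4%, 72.2% and 72.2% in the same order of gene pairs. Position in the pair can therefore be set side by side across the 3 genes.

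All 8 genes were detected, which here means at least 1 TPM (the usual transcript abundance unit, scaled for transcript length and library depth) in both libraries. Across protein-coding genes the same held for 13016, or 59.1%. Every member was above 20 TPM in both animals, and the median member level was 52.1 TPM, beside 16.6 TPM over the detected coding genes. The lowest mean level, that of Cacna1d, lay above 64.1% of the detected coding genes. In whole tissue, fewer cells expressing a gene and less RNA per cell cannot be told apart. The remaining members of the gene family were near the limit of detection. Cacna1s, the L-type subunit of skeletal muscle, had 54 and 81 reads (1.17 and 1.28 TPM), and Cacna1f, that of the retina, had 3 reads in replicate 1 and 0 in replicate 2.

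Cacna1a, the P/Q-type subunit, was the highest at 142 TPM in replicate 1 and 143 in replicate 2 (142 ± 0.898, SD, n = 2). The deposited 95% credible intervals, which describe the uncertainty of assigning reads within a library, ran from 132 to 145 and from 135 to 151. Neither interval reached that of any other member. Cacna1b, the N-type subunit, measured 62.9 and 59.1 TPM (61.0 ± 2.67). Cacna1e, the R-type subunit, measured 69.6 and 54.1 TPM (61.9 ± 10.96), and stood above Cacna1b in replicate 1 and below it in replicate 2. Its replicate 1 value lay just above its own interval (65.6 to 69.5), since the deposited TPM is not the centre of the interval.

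Among the T-type genes, Cacna1g led with 74.3 and 73.5 TPM (73.9 ± 0.608). Cacna1i followed at 41.9 and 44.7 TPM (43.3 ± 1.99), and Cacna1h was lowest at 31.0 and 21.9 TPM (26.5 ± 6.41). The 3 genes kept this order in both animals and their intervals did not touch. The L-type genes were among the lowest. Cacna1c measured 32.9 and 29.7 TPM (31.3 ± 2.23), and Cacna1d 30.2 and 21.8 TPM (26.0 ± 5.89). Both Cacna1h and Cacna1d were higher in replicate 1, and neither gene's libraries overlapped in their credible intervals.

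In descending order of mean level the genes ran Cacna1a, Cacna1g, Cacna1e, Cacna1b, Cacna1i, Cacna1c, Cacna1h and Cacna1d. Neighbours were called apart where both libraries gave the same order and the credible intervals did not overlap in either. By this rule Cacna1a stood above Cacna1g by 1.93-fold, Cacna1b above Cacna1i by 1.41-fold and Cacna1i above Cacna1c by 1.38-fold. Cacna1g and Cacna1e differed by 1.204-fold, and their intervals overlapped in replicate 1. Cacna1e and Cacna1b changed places between the animals. Cacna1c, Cacna1h and Cacna1d could not be ordered, since no pair of them was apart in both libraries.

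**Figure D1:**
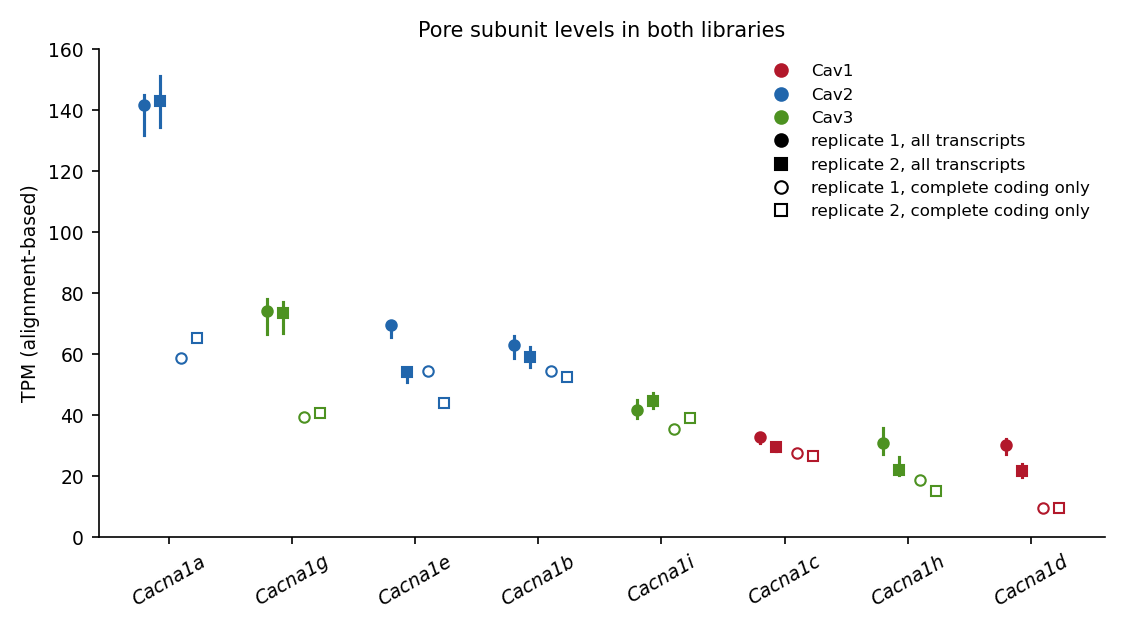
TPM of each gene (vertical axis) in replicate 1 (circles) and replicate 2 (squares), coloured by class. Filled points count all transcripts, with the deposited 95% credible interval as a bar, and open points count only transcripts with a complete annotated coding sequence. Cacna1a stands above all others at 142 and 143 TPM when all transcripts count, and at 58.9 and 65.4 TPM when only complete coding ones do.

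Summed by class, the Cav2 genes made up 56.9% ± 0.428 (SD, n = 2) of the pore subunit TPM, at 56.6% and 57.2% in the 2 animals. The Cav3 genes made up 30.8% ± 0.634 (30.4% and 31.3%), and the Cav1 genes 12.3% ± 1.06 (13.0% and 11.5%). The sums over all 8 genes were 484 and 448 TPM. The gaps between classes were thus many times the spread between the animals. With expected reads in place of TPM, which gives long transcripts more weight, the shares were 58.1%, 27.9% and 13.9%.

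The genes differed in how much of their level came from transcripts annotated as protein-coding, a class that includes fragments with only part of the coding sequence. These transcripts held 99.9% ± 0.158 of the TPM of Cacna1i, 99.3% ± 0.472 of Cacna1b, 86.4% ± 3.95 of Cacna1c and 82.7% ± 2.87 of Cacna1e. The share was 68.4% ± 4.85 for Cacna1h, 54.2% ± 1.79 for Cacna1g, 46.2% ± 2.20 for Cacna1a and 37.7% ± 8.21 for Cacna1d. Transcripts with a complete coding sequence held less of some genes, at 86.1% of Cacna1i, 87.5% of Cacna1b, 79.9% of Cacna1e, 64.3% of Cacna1h and 43.6% of Cacna1a. In Cacna1i the gap was mainly the 394-base fragment Cacna1i-203 (11.97% and 12.6%), on only 27.7 and 33.9 reads. In Cacna1b it was mainly the 308-base fragment Cacna1b-206, on 31.5 and 21.2 reads. The alignment-free tables gave Cacna1i-203 0% and 0.026%, and Cacna1b-206 0% in both libraries. Over 11756 detected coding genes with several transcripts the median protein-coding share was 87.8%, with quartiles of 70.5% and 97.3%, and 6 of the 8 members lay below that median. The members also had more annotated transcripts, with a median of 10.5 beside 5.

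For Cacna1a most of the remainder was assigned to a single short annotated transcript. Cacna1a-210, a processed transcript of 549 bases and 5 exons, held 43.0 and 47.4 TPM, or 30.4% and 33.2% of the gene's level. It took only 363 and 437 of the gene's reads, or 3.50% and 3.64%, because TPM divides reads by length. It is also the only annotated Cacna1a transcript with the downstream 97-base twin. Whether its reads came from longer RNAs with that exon was not tested. The leading coding transcript, Cacna1a-201 (7926 bases in 47 exons), held 58.9 and 65.4 TPM on 8625 and 10476 reads. In Cacna1g the noncoding share lay mainly in the 2-exon transcripts Cacna1g-212 (13.9 and 13.5 TPM) and Cacna1g-214 (12.5 and 11.01 TPM). The leading Cacna1g coding transcript, Cacna1g-203, held 21.9 and 24.0 TPM. Counted in reads rather than TPM, coding transcripts held 90.1% of Cacna1a and 93.1% of Cacna1g.

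Cacna1d was the member for which both counts were low. Its coding transcripts took 48.1% of reads and 37.7% of TPM. Retained-intron transcripts held 38.2% of its TPM, and transcripts annotated as targets of nonsense-mediated decay, the pathway that removes messages with a premature stop, held 14.6%. The leading transcript was the retained-intron Cacna1d-203 in replicate 1 (5.09 TPM) and the coding Cacna1d-204 in replicate 2 (3.83 TPM). The decay target Cacna1d-208, a 48-exon transcript of 9658 bases, held 4.35 and 3.25 TPM. It took the most reads in both libraries (27.8% and 24.8%) and led in the alignment-free tables.

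The lower level of Cacna1d in replicate 2 was not seen in its complete coding transcripts. These measured 9.63 and 9.51 TPM, while the whole gene measured 30.2 and 21.8. For Cacna1h the complete coding transcripts measured 18.6 and 15.03 TPM, so a difference in the same direction was left. For Cacna1e they measured 54.4 and 44.1 TPM, again lower in replicate 2. Counting only complete coding transcripts was an alternative added after the data had been seen. The order of means then became Cacna1a, Cacna1b, Cacna1e, Cacna1g, Cacna1i, Cacna1c, Cacna1h and Cacna1d. Cacna1b and Cacna1e both measured 54.4 TPM in replicate 1, so their order rested on replicate 2 alone. Cacna1a then stood at 62.1 ± 4.60 TPM beside 53.4 ± 1.40 for Cacna1b, and Cacna1g moved from the second place to the fourth at 40.0 ± 0.990 TPM.

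**Figure D2:**
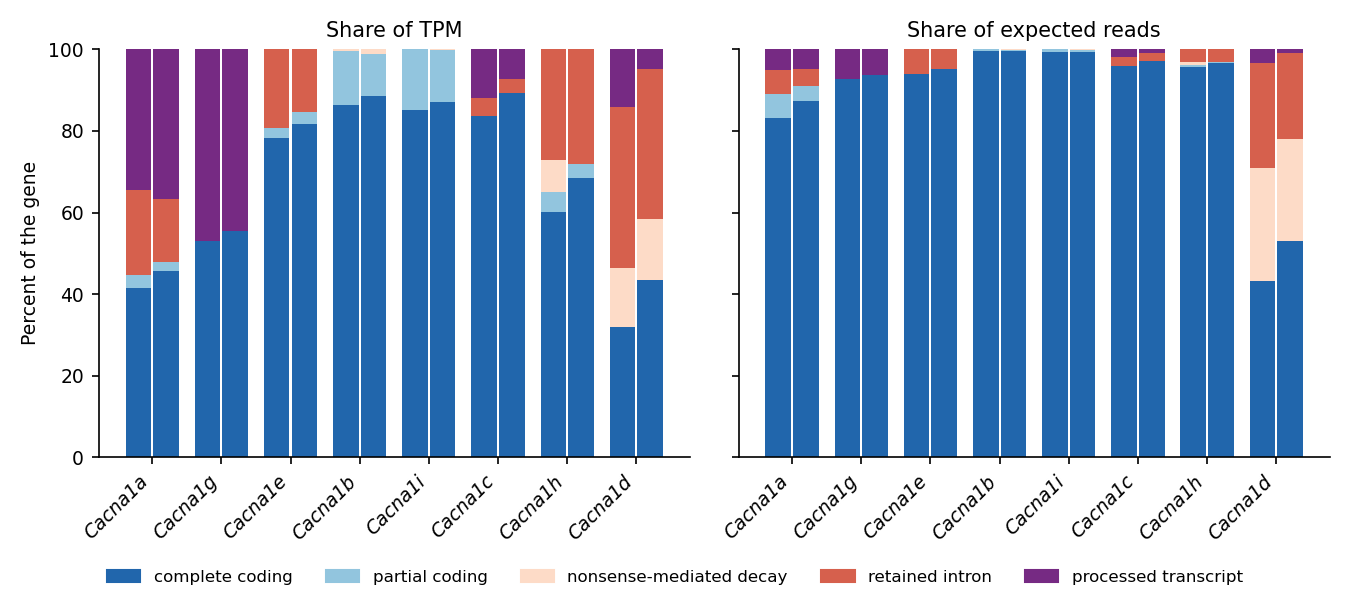
Share of each gene (vertical axis, percent) held by each kind of annotated transcript, by TPM on the left and by expected reads on the right. The left bar of each pair is replicate 1 and the right bar replicate 2. Coding transcripts, partial ones included, hold nearly all of Cacna1b and Cacna1i on both scales, much less of Cacna1a and Cacna1g by TPM than by reads, and 48.1% of Cacna1d even by reads.

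Leading transcripts were the same in both libraries and both quantifications for Cacna1a (Cacna1a-201), Cacna1c (Cacna1c-207), Cacna1e (Cacna1e-203) and Cacna1i (Cacna1i-202). Cacna1i-202 was close to the only form, with 85.0% and 87.2% of the gene's TPM. Cacna1e-203 held 73.0% and 75.8%. In Cacna1b, Cacna1b-204 led in the alignment-based tables with 38.0% and 39.4%, and Cacna1b-205 in the alignment-free tables with 40.1% and 38.6%. In Cacna1g, Cacna1g-203 led in the alignment-based tables with 29.5% and 32.7%. The noncoding Cacna1g-212 led in the alignment-free tables with 25.4% and 22.4%. In Cacna1h, Cacna1h-205 held 60.1% and 68.5% in the alignment-based tables, where Cacna1h-201 was at 0. The alignment-free tables gave Cacna1h-201 18.4% and 40.7%, so the split between these long transcripts depended on the quantification. Cacna1e-207 was named after its values were seen, because it moved from 5.16% and 5.80% to 17.1% and 18.5% in the alignment-free tables.

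The Cav2 genes differed in which 97-base twin the deposited transcript values assigned to them. In Cacna1a, transcripts with the upstream twin held 63.3 and 68.3 TPM and those with the downstream twin 43.0 and 47.4 TPM, so the upstream share was 59.5% and 59.0%. In Cacna1b, the upstream twin had 0.250 and 0 TPM (1.10 and 0 reads) and the downstream twin 54.4 and 52.4 TPM, so the upstream share was 0.458% and 0%. In Cacna1e, the upstream twin had 1.74 and 1.69 TPM (7.57 and 8.01 reads) and the downstream twin 54.4 and 44.1 TPM, an upstream share of 3.10% and 3.69%. The alignment-free tables gave upstream shares of 54.7% and 56.5% in Cacna1a and 0% in both other genes. In both animals and both quantifications the upstream shares of Cacna1b and Cacna1e thus lay far below that of Cacna1a.

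These shares are bound to the annotation. In Cacna1a only Cacna1a-210, the 549-base noncoding transcript, carries the downstream twin, and every complete coding transcript carries the upstream one. In Cacna1b and Cacna1e the upstream twin is annotated only in a 3-exon fragment, Cacna1b-210 of 332 bases and Cacna1e-208 of 331 bases. No complete coding transcript with the rarer twin was therefore available to receive reads in any of the 3 genes. Among complete coding transcripts, the contrast between Cacna1a and the other genes was thus fixed by the annotation in both quantifications. By reads, which are dominated by the long transcripts, the upstream share of Cacna1a was 96.2% in both libraries.

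The L-type genes share a twin pair of 104 bases that codes for the last membrane segment of the first domain and adjoining residues. These sequences are shown because the genes favoured opposite members of the pair. In Cacna1c, on the minus strand, the twins lie at chr6:118742265-118742368 and chr6:118741871-118741974.
Cacna1c upstream: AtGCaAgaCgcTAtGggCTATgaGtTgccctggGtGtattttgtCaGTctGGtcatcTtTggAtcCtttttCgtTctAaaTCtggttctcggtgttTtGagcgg
Cacna1c downstream: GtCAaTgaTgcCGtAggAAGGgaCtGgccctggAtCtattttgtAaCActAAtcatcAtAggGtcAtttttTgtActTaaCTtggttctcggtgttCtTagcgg

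In Cacna1d, on the minus strand, they lie at chr14:30171956-30172059 and chr14:30171296-30171399.
Cacna1d upstream: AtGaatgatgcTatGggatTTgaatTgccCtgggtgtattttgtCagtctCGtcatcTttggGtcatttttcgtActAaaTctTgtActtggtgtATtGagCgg
Cacna1d downstream: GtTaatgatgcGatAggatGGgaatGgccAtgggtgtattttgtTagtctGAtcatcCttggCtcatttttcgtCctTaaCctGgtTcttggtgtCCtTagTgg

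The upstream twins of Cacna1c and Cacna1d matched at 90 of 104 bases (86.5%) and the downstream twins at 83 (79.8%), while the twins of Cacna1c matched at 69.2% and those of Cacna1d at 78.8%. In Cacna1c the upstream twin held 63.9% and 64.5% of TPM (17.7 and 17.2 TPM beside 10.0 and 9.45). In Cacna1d it held 33.1% and 33.9% (4.63 and 4.33 TPM beside 9.35 and 8.43). The libraries of a gene lay within 1 percentage point of each other, and the genes lay on opposite sides of an even split in both. The alignment-free tables gave 59.7% and 59.9% for Cacna1c and 38.1% and 35.4% for Cacna1d. Several complete coding transcripts carry each twin of this pair in Cacna1c. In Cacna1d the upstream twin rested mainly on Cacna1d-208, the decay target, which held 4.35 of its 4.63 TPM in replicate 1 and 3.25 of its 4.33 TPM in replicate 2.

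A pair of 84 bases, coding for a stretch of the voltage sensor of the last domain, was present in both L-type genes. In Cacna1c the upstream 84-base twin held 53.9% and 51.4%, against alignment-free values of 53.8% and 48.1%, so neither twin was ahead throughout. In Cacna1d it held 68.9% and 74.5%, and the downstream twin was annotated only in Cacna1d-208. The twins of this pair matched best by position as well, at 70.2% for the upstream twins of Cacna1c and Cacna1d and 79.8% for the downstream twins. Cacna1c has a further pair of 60 bases, of which the upstream exon held 33.9% and 34.5%. Cacna1e has a pair of 12 bases, of which the upstream exon had 0 reads in both libraries.

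**Figure D3:**
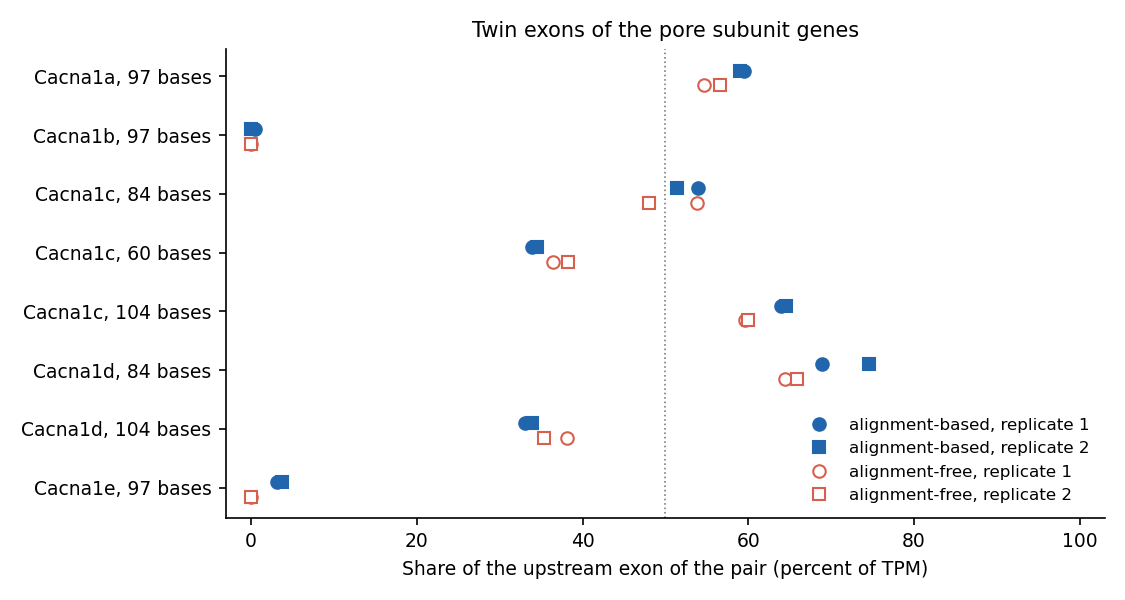
Share of TPM held by the upstream exon of each twin pair of more than 12 bases (horizontal axis, percent), for both replicates and both quantifications. The dotted line marks an even split. Cacna1a lies between 54.7% and 59.5% while Cacna1b and Cacna1e lie at or below 3.69%, and the 104-base pairs of Cacna1c and Cacna1d lie on opposite sides of the line. The annotation limits the contrast with Cacna1a, since the upstream twin of Cacna1b and Cacna1e is annotated only in a short fragment.

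Single exons that transcripts include or skip were also compared, keeping those whose rarer form held at least 10% of TPM. There were 9 such exons, in Cacna1b, Cacna1c, Cacna1d and Cacna1g, and the same form was the larger one in both libraries and both quantifications for all 9. In Cacna1b, a 12-base exon (GAGCTTCATGGG, chr2:24656711-24656722), which lengthens the linker before the voltage-sensing segment of the third domain, was included in 37.1% and 39.0% of TPM. A 6-base exon at the matching place in the fourth domain (GAAACG, chr2:24642853-24642858) was included in 62.9% and 61.0%. Their shares add to the whole because no annotated complete transcript carries both or neither, so they are one measurement and not a pair. A 108-base exon of Cacna1b was included in 81.2% and 83.7%. A 63-base exon of Cacna1b, annotated in the 308-base fragment Cacna1b-206, was at 15.4% and 10.2% on 31.5 and 21.2 reads, and at 0% in the alignment-free tables.

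In Cacna1c, a 75-base exon in the linker between the first and the second domains was included in 35.9% and 35.3%. Cacna1d-207 alone carries a 60-base exon in the same linker of Cacna1d and a 45-base exon before the voltage-sensing segment of the fourth domain. The 60-base exon was included in 34.3% and 25.8%, and the 45-base exon in 49.4% and 28.6%, lower in replicate 2 both times. That transcript had 4.76 and 2.72 TPM, with overlapping credible intervals of 3.16 to 6.28 and 1.82 to 4.14. In Cacna1g, a 54-base exon in the linker between the third and the fourth domains was included in 90.2% and 81.9%. A 69-base exon of Cacna1g was included in 74.99% and 85.2%, and in 63.0% and 61.0% in the alignment-free tables, where the direction between the animals was the opposite.

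Between the animals, no member differed by 1.5-fold or more once expected reads were scaled with TMM factors. Over all 12689 genes with a mean of at least 100 reads, 218 (1.72%) did. Cacna1i had 6486 reads in replicate 1 and 7770 in replicate 2, a scaled log2 ratio of 0.25 (95% counting interval 0.20 to 0.29). Cacna1a had 10364 and 11996 reads (log2 ratio 0.20) and Cacna1g 6381 and 7147 (0.15). Lower in replicate 2 were Cacna1e with 15488 and 13531 reads (-0.21, interval -0.24 to -0.18), Cacna1h with 2964 and 2589 (-0.21) and Cacna1d with 2802 and 2566 (-0.14). Cacna1b with 8795 and 9224 reads (0.05) and Cacna1c with 5546 and 5719 (0.03) were nearly even, and only the interval of Cacna1c included 0. The intervals cover counting error in a pair of libraries and not the spread between animals.

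These ratios were larger than those of the typical gene. Their median was 0.17 in absolute log2 value, beside 0.09 over all genes tested and 0.07 over the 3229 genes with a mean of 2000 reads or more. In TPM, Cacna1h differed by 1.41-fold, Cacna1d by 1.38-fold and Cacna1e by 1.29-fold, all higher in replicate 1, and the other 5 by at most 1.11-fold. With a difference of 25% as the threshold these 3 members were apart in TPM, as were 13.8% of 12685 genes. For Cacna1b, Cacna1c and Cacna1g the sign of the ratio turned between scaled reads and TPM. Some cell type markers differed between the libraries as well. All 4 striatal markers were lower in replicate 2, with Ppp1r1b at 29.4 and 20.6 TPM and the list summing to 46.9 and 34.6. Every other cell type list except the oligodendrocyte lineage also summed lower in replicate 2, the excitatory one barely, at 900 and 899 TPM. Of the inhibitory markers, Gad1 had 79.7 and 57.8 TPM and Sst 158 and 162, and the list of 6 summed to 328 and 304. The 4 oligodendrocyte lineage genes, all detected, summed to 140 and 228 TPM, a difference that lay almost wholly in Mbp, a myelin protein gene at 90.02 and 181 TPM. Mog, the lowest of that list, was also higher in replicate 2, at 1.83 and 4.53 TPM. Pdgfra had 36.3 and 29.8 TPM and Olig2 12.3 and 13.2. The part of these cell types in the members' differences was not tested.

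**Figure D4:**
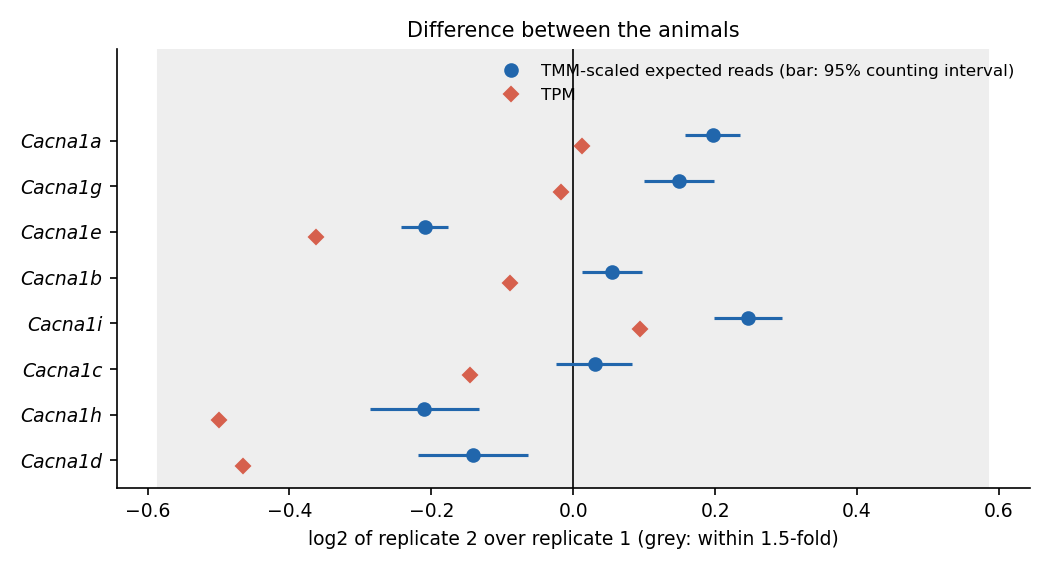
Log2 ratio of replicate 2 over replicate 1 (horizontal axis) for each gene. Circles are TMM-scaled expected reads with their 95% counting interval, diamonds are TPM, and grey marks ratios within 1.5-fold. All 8 genes lie inside the grey band on both scales, with Cacna1i highest at 0.25 and Cacna1h lowest in TPM at -0.50.

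The alignment-free tables gave higher TPM for all 8 members, as for most genes. Cacna1c measured 50.4 and 46.6 TPM there, 1.53- and 1.56-fold above the alignment-based values, and Cacna1h measured 48.7 and 34.1 TPM, 1.57- and 1.55-fold above. These 2 members passed 1.5-fold in both libraries, beside 37.3% of 14935 genes. The median fold was 1.42 over the members and 1.49 over all genes, so the members' ratio to other genes changed little. With both tables rescaled to the same total over nuclear protein-coding genes, 0 of 8 members were 1.5-fold higher, beside 3.12% of 16992 genes. The order of mean levels was again led by Cacna1a (210 and 213 TPM) and Cacna1g (98.7 and 108 TPM), and closed by Cacna1h and Cacna1d (37.8 and 30.02 TPM).

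The subunits that assemble with the pore were measured alongside. Of 8 auxiliary subunit genes, 7 were detected, with sums of 378 and 351 TPM. The highest alpha-2-delta gene, whose products raise the number of channels at the surface, was Cacna2d1 at 101 and 85.0 TPM, and the lowest was Cacna2d4 at 0.800 and 1.42 TPM. The beta subunits, which bind Cav1 and Cav2 pores, ran from Cacnb2 at 17.8 and 16.1 TPM to Cacnb3 at 91.4 and 87.6 TPM. Of 20 genes for channel partners and regulators, 19 were detected, led by the calmodulin gene Calm2 at 1189 and 1168 TPM, with Gem, a small GTPase that inhibits the channels, at 0.700 and 0.720 TPM. All 10 listed calcium-activated channels, enzymes and release channels were detected, from Ryr1 at 3.46 and 2.15 TPM to Camk2a at 524 and 490 TPM. Of 7 related cation channel genes, 4 were detected, with Nalcn, the sodium leak channel, highest at 32.96 and 28.0 TPM and Catsper1, a sperm channel gene, at 0 reads in both.

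The markers of the labelled tissue were present. All 8 cortical excitatory markers (sums of 900 and 899 TPM) and all 6 inhibitory markers were detected, as were the 4 astrocyte markers (290 and 270 TPM) and the 3 microglia markers (79.2 and 74.3 TPM). Markers of other brain regions in which some of these channels are abundant were also measured. The 4 cerebellar genes summed to 9.40 and 8.35 TPM, nearly all Car8, with Pcp2 and Gabra6 at 0 reads in replicate 1. The 4 thalamic genes summed to 15.7 and 13.8 TPM with 3 of 4 detected. All 4 striatal genes were detected, and their highest, Ppp1r1b, lay above the median of detected coding genes. Vascular smooth muscle, a known site of Cacna1c expression, had markers that summed to 14.7 and 13.4 TPM with 3 of 4 detected. Of the 4 muscle and 3 retina markers, 1 each was detected.

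Neighbouring genes overlap some members. Dcp1b, on the strand opposite to Cacna1c, had 9.06 and 6.86 TPM, and Dcp1a, opposite to Cacna1d, had 8.60 and 7.60 TPM. The pseudogene Gm18981 lies within Cacna1c on its strand and had 0.890 and 0.620 TPM. The spike-in label names a stranded library type, but no source read here says whether counting used strand, so reads in these overlaps are uncertain. The other overlapping genes were at or below 0.190 TPM.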

How the data were processed

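The authors deposited, for each library, an alignment-based gene table and transcript table with expected counts, TPM and 95% credible interval bounds on the TPM signal, and an alignment-free transcript table with estimated counts and TPM, per the file headers. The deposited notes name assembly mm10 and annotation M21. For the counting tools, their versions and the strand setting, no statement was found in the labels, notes or headers. Expected counts sum to 29867112 and 31031340 reads, and spike-ins and rows that name no mouse gene were left out.

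Members were taken by symbol and all their transcripts kept. Alignment-free gene values are sums over transcripts, and 86 genes without such rows were left out of that comparison. Genes were detected at 1 TPM in both libraries. Library ratios used edgeR 4.0.16 TMM factors (R 4.3.3), a prior of 0.5 reads, genes with a mean of 100 reads and Clopper-Pearson 95% intervals, which cover counting error only. Log2 ratios of TPM between members and between quantifications used a pseudocount of 0.1, and those between libraries used none. Exon positions and sequences came from the GENCODE M21 annotation, and exon shares are summed TPM of the transcripts with each form. A skipped exon was kept where the rarer form held 10% or more and the transcripts compared held at least 20% of the gene. Calls of 1.5-fold were checked on simulated data. The alternatives were other scalings (DESeq2 1.42.0 size factors, total counts), filters, folds, units and transcripts. The members and lists were chosen with earlier results of these data known. Every member was named. Other genes named were highest or lowest in their list or those a sentence turns on, and not every highest or lowest gene is named. Transcripts named were the leading ones of each member, some of those at 10% or more, and those a sentence turns on. Python 3.11.15, pandas 2.3.3 and matplotlib 3.10.9 were used.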

Additional observations from a re-analysis of the deposited data

How the results depend on the processing

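All 8 members were detected under each threshold and unit tried, and in each library alone. The Cav2, Cav3, Cav1 order of class shares was the same under all alternatives. With expected reads the shares were 58.1%, 27.9% and 13.9%. With alignment-free TPM Cav2 was 57.7% and Cav3 29.97%, with protein-coding transcripts only 56.3% and 32.1%, and with complete coding transcripts only, added after the data had been seen, 55.8% and 31.9%. Of 7 neighbours in the order of levels, 6 had the same order in both libraries, and 5 under either restriction of transcripts. Cacna1g lay below Cacna1e there and with expected reads, where Cacna1e was also above Cacna1a (15488 and 13531 reads beside 10364 and 11996). No member was 1.5-fold apart between libraries under any scaling, filter or fold tried on reads, down to a difference of 25%, which 6.68% of genes passed. Members higher in the alignment-free tables numbered 7 at a difference of 25% (83.4% of genes), 0 at 2-fold (6.73%), 0 after rescaling (3.12% of genes) and 1 with protein-coding transcripts only (29.1%). Without replicate 1 they numbered 3 (55.4% of genes) and without replicate 2 they numbered 2 (41.4%). The transcript with the highest mean TPM led both libraries in 7 members, and both alignment-free tables in 4. The same counts were not taken over all genes, so whether such changes are usual cannot be said. Their cause was not tested. With alignment-free TPM or expected reads, both added after the data had been seen, exon shares moved by more than 1 SD between the animals in 25 cases and by less in 11. Depth limits the short fragments, such as Cacna1b-210 with 1.10 and 0 reads and Cacna1e-208 with 7.57 and 8.01. No paired analysis was possible because the series has a single group.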
